A study of Mus musculus with 53 samples.

Results

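The serotonin genes examined in mouse sciatic nerve were these 7: Tph1 and Tph2, which encode the tryptophan hydroxylases, Ddc, which encodes aromatic L-amino acid decarboxylase, Maoa and Maob, which encode the monoamine oxidases, and Htr2a and Htr2b, which encode the 5-HT2A and 5-HT2B receptors. They were picked by symbol, all 7 were found among the 49568 genes of the deposited tables, and all 7 had a mean log2 value of at least 3.32 (10 on the linear scale), the minimum used for testing. The list was built round the response of Tph2 to the high-fat diet at 24 weeks of age, which was known beforehand. The 24-week differences of Tph2 between groups are therefore a description with no test. The question put to the data was whether the other 6 genes moved with Tph2. Relations to Tph2 within groups, which those differences do not enter, were tested.

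Sciatic nerve RNA was sequenced from male C57BL/6J mice in 8 groups and 53 samples. SD mice ate a standard diet. HFD mice, a model of prediabetes, ate a diet with 60% of calories from fat from 5 weeks of age, and HFD-STZ mice, a model of type 2 diabetes, ate the same diet and also received streptozotocin (STZ), a toxin of pancreatic beta cells, at 12 weeks of age, 75 and then 50 mg/kg. In dietary reversal (DR), HFD-DR and HFD-STZ-DR mice went back to the standard diet at 16 weeks for 8 weeks. The 16-week set held SD (n = 5), HFD (n = 7) and HFD-STZ (n = 5) nerves, and the 24-week set held SD (n = 8), HFD (n = 7), HFD-DR (n = 7), HFD-STZ (n = 8) and HFD-STZ-DR (n = 6) nerves. The labels do not number the replicates, so the numbers used here follow the order of deposition. The whole nerve holds axons without their cell bodies, Schwann cells, fibroblasts, vessels, immune cells and adhering fat, and STZ was given after the high-fat diet had begun, so no group had STZ alone.

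Serotonin is made from tryptophan by a hydroxylase, which sets the rate and needs the cofactor tetrahydrobiopterin, and then by a decarboxylase that also serves dopamine synthesis. Of the hydroxylases, TPH1 is known for the gut, the pineal gland and rodent mast cells, and TPH2 for the serotonin neurons of the brainstem. The monoamine oxidases, enzymes of the outer mitochondrial membrane, remove serotonin and other amines. The 5-HT2 receptors couple to Gq proteins, 5-HT2A being known in smooth muscle, platelets and cortex and 5-HT2B in heart valves, vessels and fibroblasts.

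The hydroxylase genes and the monoamine oxidase genes form pairs of similar sequence, so a stretch of each pair is shown to let the reader see how far reads of one could be taken for the other. In the GENCODE M21 annotation of GRCm38, Tph1 lies on the minus strand at chr7:46644641-46672537, Tph2 on the minus strand at chr10:115078641-115185022, Maoa on the plus strand at chrX:16619698-16687818 and Maob on the minus strand at chrX:16709282-16817366. The lines give the most similar 90-base coding stretch within a single exon of each gene, 5′ to 3′ on the coding strand, with the bases that differ within a pair in capitals. They lie in exon 6 of 11 in both hydroxylase genes (chr7:46656892-46656981 and chr10:115151117-115151206) and in exon 12 of 15 in both oxidase genes (chrX:16682201-16682290 and chrX:16716394-16716483).
Tph1: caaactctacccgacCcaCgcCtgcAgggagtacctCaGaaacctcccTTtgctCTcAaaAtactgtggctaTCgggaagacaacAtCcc
Tph2: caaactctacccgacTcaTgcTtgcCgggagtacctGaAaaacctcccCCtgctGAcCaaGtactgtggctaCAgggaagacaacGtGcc
Maoa: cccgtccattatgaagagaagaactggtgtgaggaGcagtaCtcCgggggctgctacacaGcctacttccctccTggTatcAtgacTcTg
Maob: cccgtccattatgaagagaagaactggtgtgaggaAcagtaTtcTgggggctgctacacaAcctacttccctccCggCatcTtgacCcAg

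Even in these stretches the Tph1 and Tph2 transcripts differed at 16 of 90 bases, and Maoa and Maob at 9 of 90. Over the aligned coding sequences, 69.4% of bases were identical between Tph1 and Tph2, with no identical run longer than 15 bases, and 71.3% between Maoa and Maob, with a longest run of 35 bases. No 100-base stretch of the Tph1, Tph2, Ddc, Maob or Htr2a transcript occurred in a transcript of another annotated gene. In Maoa, 15 of 4068 such stretches also occurred in Gm26691, and in Htr2b, 154 of 1984 occurred in Psmd1, a proteasome subunit gene on the opposite strand whose exons cover 11.8% of the exonic bases of Htr2b. The libraries were not stranded, so reads from that overlap cannot be assigned to Htr2b or Psmd1. Ddc lies at chr11:11814101-11898144 on the minus strand, Htr2a at chr14:74640840-74709494 on the plus strand and Htr2b at chr1:86099026-86111970 on the minus strand.

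The genes differed widely in level. On the log2 scale and per kilobase of exon, the mean in SD nerve at 24 weeks was 9.60 for Maoa and 8.75 for Maob, against 3.81 for Ddc, 3.63 for Htr2b, 3.30 for Tph1, 2.53 for Htr2a and 2.23 for Tph2. In SD nerve at 24 weeks, then, the breakdown enzymes were the abundant transcripts of the set and Tph2 had the lowest mean. In SD nerve at 16 weeks the means of Tph1 and Tph2 were close, at 2.03 and 2.31, and Tph1 had an SD of 0.72 over samples. The length used was that of all annotated exons of a gene, so the order of these 2 genes at 16 weeks was not settled. In HFD nerve at 24 weeks the same measure was 7.65 for Tph2 and 2.95 for Tph1, which placed Tph2 above Ddc (3.98) and below both oxidases. All further values are the deposited log2 values, not divided by length.

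**Figure D1:**
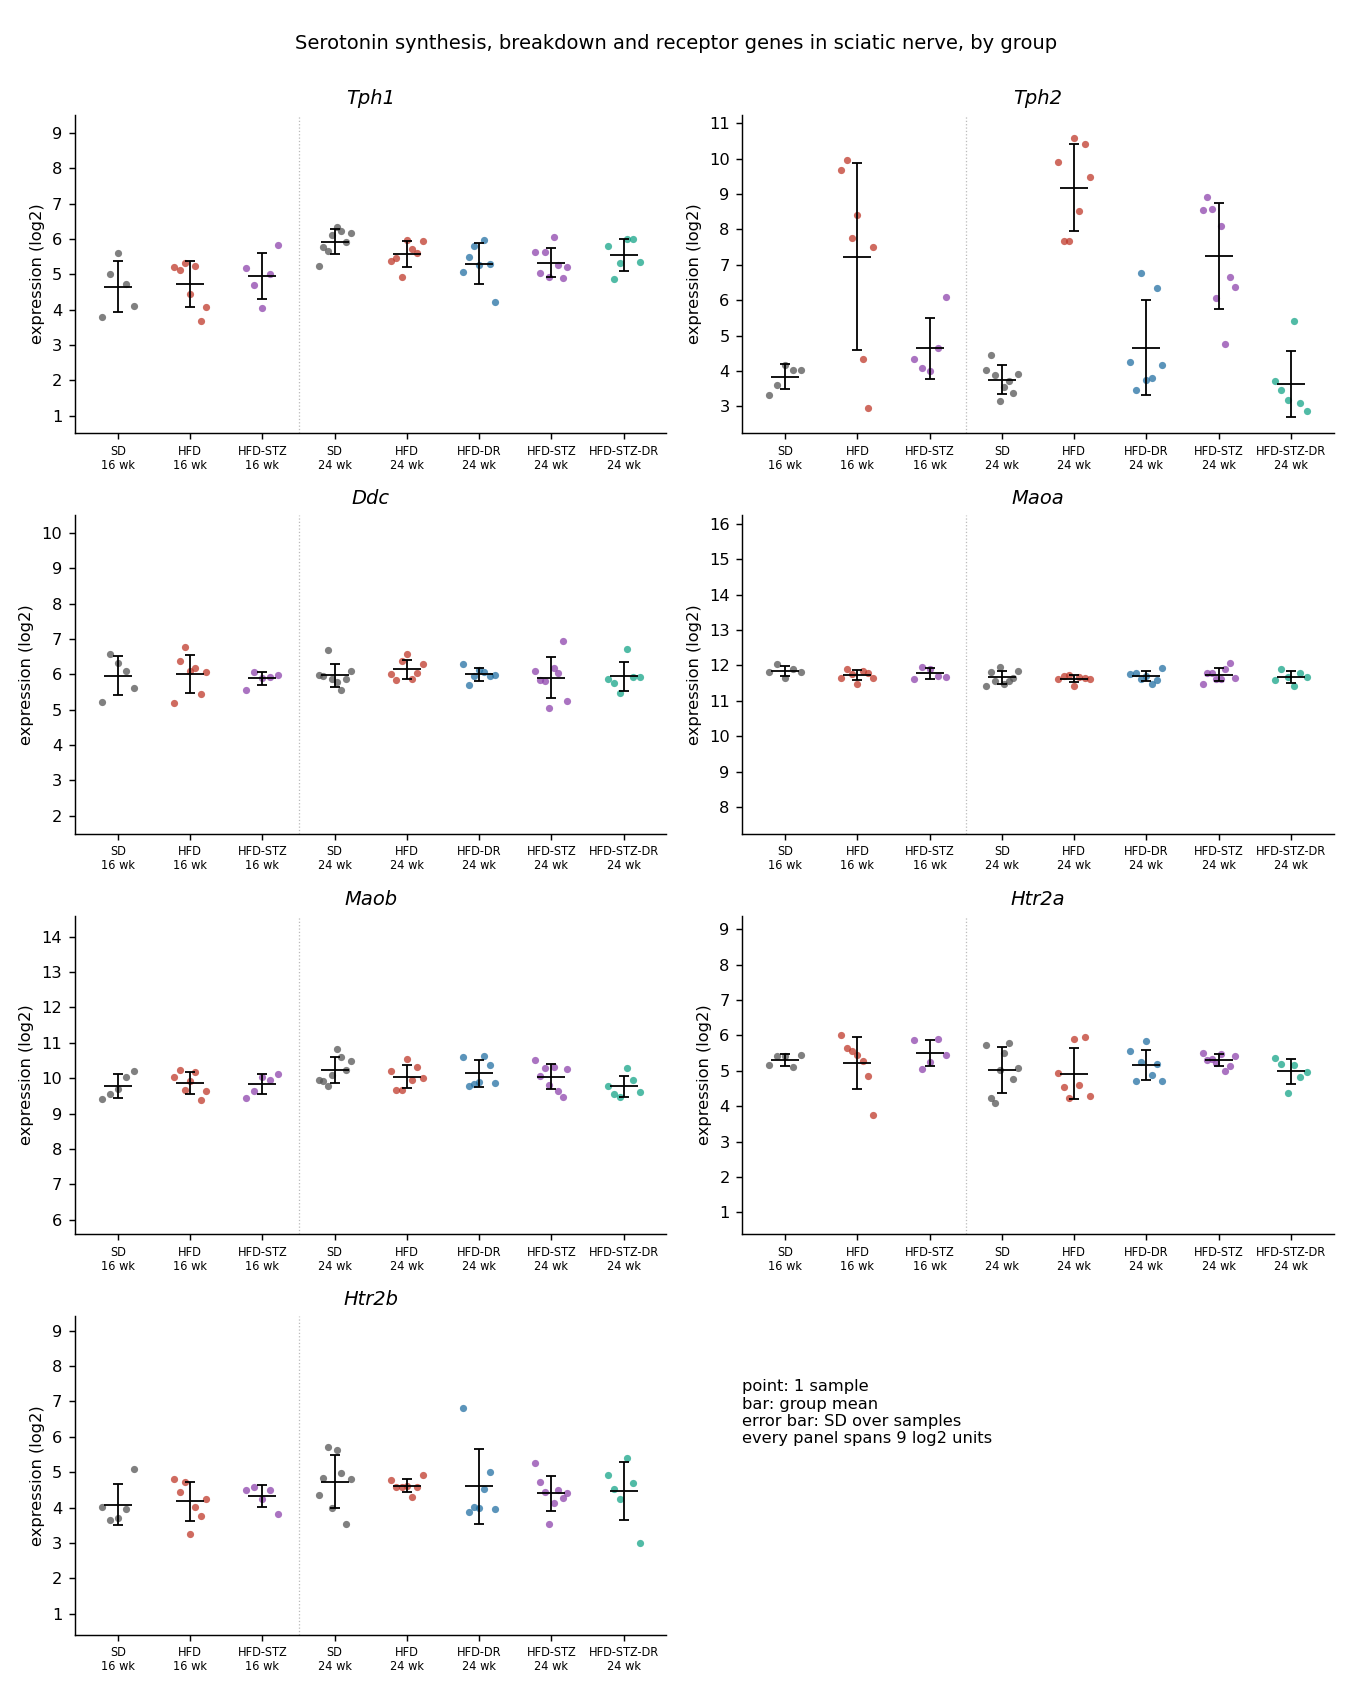
Log2 expression (y axis) of the 7 genes in each of the 8 groups (x axis); every point is 1 sample, horizontal bars are group means, error bars are SD over samples, and each panel spans 9 log2 units. Tph2 ranged from 2.88 to 10.59 over the samples, whereas the group means of Maoa lay within 0.22 of each other.

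Of the hydroxylase genes, Tph2 had by far the wider range between diets. In the 8 SD samples at 24 weeks it was lowest at 3.16, with a median of 3.80, and highest at 4.45, and in the 7 HFD samples it was lowest at 7.67, with a median of 9.47, and highest at 10.59. The groups did not overlap, which held for 0.253% of all genes tested in this comparison, and their means differed by 5.42 (9.18 ± 1.23 against 3.76 ± 0.40, SD, n = 7 and 8), a ratio of 42.7 between geometric means.

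In the 8 HFD-STZ samples at 24 weeks Tph2 was lowest at 4.78, with a median of 7.38, and highest at 8.91. All 8 were above every SD sample (the groups did not overlap in 0.0616% of genes), and the means differed by 3.49, a ratio of 11.3 between geometric means. HFD-STZ and HFD nerve overlapped, although 4 of 8 HFD-STZ samples were below every HFD sample.

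After reversal, Tph2 was lower in both models. In the 7 HFD-DR samples it was lowest at 3.45, with a median of 4.17, and highest at 6.78, below all 7 HFD samples (the groups did not overlap in 0.119% of genes), and the means differed by 4.52. HFD-DR replicates 3 and 6, at 6.78 and 6.36, were the 2 HFD-DR samples above all SD samples. In the 6 HFD-STZ-DR samples it was lowest at 2.88, with a median of 3.33, and highest at 5.42, with 5 of 6 below all HFD-STZ samples and a difference in means of -3.62. Replicate 4, the exception, made these groups overlap, whereas 0.23% of genes had groups that did not.

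At 16 weeks the HFD samples were spread widely. The Tph2 values of the 5 SD samples were 3.33, 3.62, 4.17, 4.03 and 4.04, and those of the 7 HFD samples were 9.68, 9.96, 7.75, 8.41, 4.35, 2.95 and 7.51. Thus 6 of 7 HFD samples were above every SD sample, replicate 5 (4.35) only just, and replicate 6 (2.95) was below all of them. The means differed by 3.39 (SE 1.04), which did not pass over all genes (limma, Benjamini-Hochberg adjusted p = 0.446). An exact permutation test of this gene alone, with no adjustment, gave a two-sided p of 0.0366 over 792 splits. The 5 HFD-STZ values at 16 weeks were 4.35, 4.09, 4.001, 4.65 and 6.09, and 3 of 5 were above every SD sample. Their mean was 0.80 higher than in SD (SE 0.37, 95% interval -0.01 to 1.61, limma adjusted p = 0.586, exact permutation two-sided p = 0.0556). The paper's joint analysis of lipids and transcripts, which ranked Tph2 highly, covered both ages. The 16-week p-values of Tph2 are therefore not independent of its choice. With the mean of the adipocyte genes described further on as a covariate, the 16-week difference was 1.22 (SE 1.27) for HFD and 0.48 (SE 0.32) for HFD-STZ.

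In order of group mean, Tph2 stood at 9.18 in HFD at 24 weeks, 7.25 in HFD-STZ at 24 weeks, 7.23 in HFD at 16 weeks, 4.65 in HFD-DR, 4.64 in HFD-STZ at 16 weeks, 3.84 and 3.76 in SD at 16 and 24 weeks, and 3.63 in HFD-STZ-DR. Only the step from HFD to HFD-STZ at 24 weeks exceeded the larger SD of the neighbours.

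The genes next to Tph2 on the chromosome had no difference of that size. Tbc1d15, a gene for a Rab GTPase-activating protein that lies 12850 bases away, was 12.18 in HFD and 12.20 in SD nerve at 24 weeks (difference -0.02, SE 0.06, limma adjusted p = 0.941). Trhde, the gene for the thyrotropin-releasing hormone degrading enzyme, 276334 bases away on the other side, differed by 0.42 (SE 0.36, limma adjusted p = 0.720).

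None of the other 6 genes passed the adjusted threshold in any comparison of a model with SD or of reversal with its model. In HFD against SD at 24 weeks, 0 of 6 passed with limma at an adjusted p under 0.05 (0.121% of the 18191 genes tested passed), and 0 of 6 had an unadjusted p under 0.05 (9.05% of all genes). The same counts were 0 and 1 of 6 for HFD-STZ against SD at 24 weeks (background 0.0336% adjusted and 5.99% unadjusted), 0 and 0 of 6 for HFD-DR against HFD (0.0108% and 6.72%), and 0 and 0 of 6 for HFD-STZ-DR against HFD-STZ (0.084% and 6.48%). At 16 weeks, with Tph2 counted, they were 0 and 1 of 7 for HFD against SD (0.00557% and 8.55%) and 0 and 0 of 7 for HFD-STZ against SD (0% and 8.41%). The single genes were Tph1 in HFD-STZ at 24 weeks and Tph2 in HFD at 16 weeks, the latter not independent of the choice of Tph2. The median change of the 6 genes in HFD against SD at 24 weeks was -0.10, against 0.01 over all genes. The comparisons with SD share the SD samples of their age, and each reversal comparison shares its model samples with one of them.

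**Figure D2:**
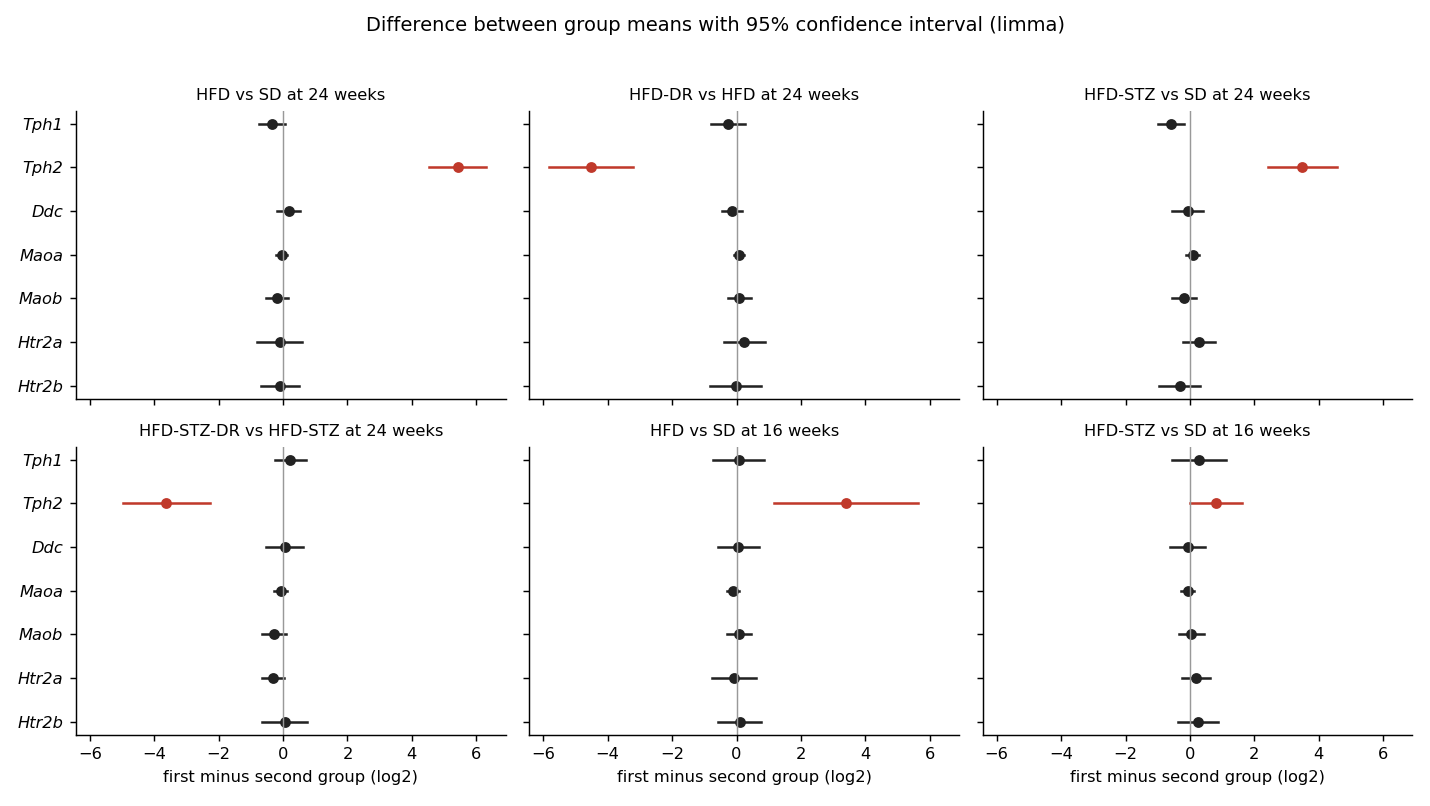
Difference between group means on the log2 scale (x axis) with its 95% confidence interval from limma for the 7 genes (y axis) in 6 comparisons, Tph2 in red. The 24-week intervals of Tph2 are a description of spread only and no test, because the list was built round that response. In HFD against SD at 24 weeks the difference for Tph2 was 5.42 and those of the other genes lay between -0.35 and 0.17.

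Tph1 had a lower mean, not a higher one, in the 24-week models in which Tph2 was high, but did not pass the adjusted threshold. At 24 weeks Tph1 was lowest at 5.24, with a median of 6.00, and highest at 6.33 in SD, and lowest at 4.91, with a median of 5.61, and highest at 5.98 in HFD. The groups overlapped, and the difference of -0.35 (SE 0.19, 95% interval -0.75 to 0.05) did not pass (limma adjusted p = 0.592, exact permutation two-sided p = 0.0849). In HFD-STZ, Tph1 was lowest at 4.89, with a median of 5.23, and highest at 6.05, and 4 of 8 samples were below every SD sample. That difference was -0.60 (SE 0.19), with an exact permutation p of 0.00995 for the gene alone, two-sided, and a limma adjusted p of 0.747. In HFD-DR it was -0.62 against SD (SE 0.23, limma adjusted p = 0.925), and -0.27 against HFD (SE 0.25, limma adjusted p = 0.920). Of 8 mast cell genes, named in the account of mast cells, 0 passed the adjusted threshold with limma in these comparisons, and the number lower at an unadjusted p under 0.05 was 6 in HFD-STZ against SD (median change -0.65, 5.99% of all genes called), 4 in HFD-DR against SD (-0.63, 5.14%), 6 in HFD-DR against HFD (-0.81, 6.72%) and 0 in HFD against SD (0.11, 9.05%).

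The widest span of Tph1 was with age. The 5 SD values at 16 weeks were 3.80, 5.02, 5.60, 4.74 and 4.11, with a mean of 4.65 ± 0.72 (SD), and at 24 weeks the mean was 5.93 ± 0.36 in 8 samples. Only the highest 16-week sample reached into the 24-week range. The difference of 1.27 (SE 0.28) missed the adjusted threshold when these 13 samples were fitted alone (limma adjusted p = 0.248, with 0% of 17788 genes past it and 10.5% at an unadjusted p under 0.05), and passed it when all 8 groups were fitted together (limma adjusted p = 0.0425), and likewise when the run of library numbers in the sample titles was added to that joint fit (limma adjusted p = 0.00800). In the fit of SD samples alone, Tph1 and Maob were the 2 of 6 genes at an unadjusted p under 0.05, against 1 of 6 (Tph1) between the ages in HFD and 0 of 6 in HFD-STZ. In HFD nerve the difference with age was 0.85 (SE 0.27, limma adjusted p = 0.667, background 0.0654% adjusted and 5.9% unadjusted) and in HFD-STZ nerve 0.38 (SE 0.28, limma adjusted p = 0.556, background 0% and 12.5%). The difference between HFD-STZ and SD in Tph1 changed by -0.89 from 16 to 24 weeks (SE 0.40, limma adjusted p = 0.756), so an effect of age on it was not shown.

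Mast cell genes moved with Tph1. The genes most like Tph1 over the 53 log2 values, of 18069 compared, were Tpsb2, a mast cell tryptase (Pearson r = 0.816), and Cpa3, the mast cell carboxypeptidase (r = 0.796). With group means removed, the r of Tph1 with the mean of 8 mast cell genes (Cpa3, Tpsb2, Tpsab1, Cma1, Mcpt4, Kit, Ms4a2 and Hdc) was 0.808, and 0.803 without the 2 samples farthest from the median of that mean. In SD nerve this mean was 7.15 ± 1.28 (SD, range 5.20 to 8.37, n = 5) at 16 weeks and 8.07 ± 0.36 (range 7.60 to 8.55, n = 8) at 24 weeks. Of the 8 genes, 0 passed the adjusted threshold with limma between these ages and 5 had an unadjusted p under 0.05 (10.5% of all genes), all higher at 24 weeks (Tpsb2 by 1.41, SE 0.61, and Cma1 by 1.43, SE 0.60). In the other 24-week groups it was 8.14 ± 0.33 in HFD (range 7.55 to 8.57, n = 7), 7.48 ± 0.48 in HFD-STZ (6.86 to 8.33, n = 8), 7.45 ± 0.53 in HFD-DR (6.47 to 8.11, n = 7) and 7.41 ± 0.72 in HFD-STZ-DR (6.07 to 7.86, n = 6). At 16 weeks it was 7.27 ± 0.43 in HFD (n = 7) and 7.16 ± 0.93 in HFD-STZ (n = 5). In whole nerve, fewer cells of a type and less RNA per cell cannot be told apart, and the part of mast cells in the Tph1 values was not tested.

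The decarboxylase gene Ddc had almost the same level in every group. Its group means lay between 5.89 and 6.14, a span of 0.26 against a pooled SD within groups of 0.41. At 24 weeks it was lowest at 5.56, with a median of 5.90, and highest at 6.68 in SD, and lowest at 5.84, with a median of 6.04, and highest at 6.57 in HFD. The ranges overlapped, and the difference of 0.17 (SE 0.16, 95% interval -0.18 to 0.52) did not pass (limma adjusted p = 0.750). Reversal differed from HFD by -0.14 (SE 0.14, limma adjusted p = 0.934). The interval for HFD against SD leaves out a rise of the size seen for Tph2. The highest Ddc value of the series, 6.93, was in HFD-STZ replicate 7 at 24 weeks, a library described further on, and the genes most like Ddc over the 53 log2 values were Fam169b (r = 0.669) and Dscam (r = 0.664).

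The monoamine oxidase genes had the smallest spread within groups of the 7, with a pooled SD of 0.16 for Maoa and 0.34 for Maob. Maoa was lowest at 11.42, with a median of 11.60, and highest at 11.96 in SD at 24 weeks, and lowest at 11.41, with a median of 11.63, and highest at 11.73 in HFD. The HFD range lay almost wholly inside that of SD, and the difference was -0.04 (SE 0.08, 95% interval -0.21 to 0.14, limma adjusted p = 0.910). Over the 6 comparisons of the models with SD and of reversal with its model, Maoa differed by at most 0.12 in size, in HFD against SD at 16 weeks (-0.12, SE 0.08, limma adjusted p = 0.685).

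Maob was lowest at 9.78, with a median of 10.16, and highest at 10.81 in SD at 24 weeks, and lowest at 9.66, with a median of 10.01, and highest at 10.53 in HFD. The ranges overlapped, with a difference of -0.19 (SE 0.17, 95% interval -0.54 to 0.17, limma adjusted p = 0.732). Its lowest group mean, 9.77, was in HFD-STZ-DR and its highest, 10.23, in SD at 24 weeks, 0.46 apart (SE 0.17, limma adjusted p = 0.424, 0% of genes passed). In the same comparison 3 of 6 endothelial genes (median change -0.30) and 5 of 6 adipocyte genes (median change -1.53) were lower at an unadjusted p under 0.05, against 9.16% of all genes, and 0 of either list passed the adjusted threshold with limma. The endothelial mean was 11.35 ± 0.19 in SD (range 11.10 to 11.70, n = 8) and 11.12 ± 0.12 in HFD-STZ-DR nerve (10.94 to 11.26, n = 6), and the part of these cells in the Maob values was not tested. Like Tph1, Maob was higher in SD nerve at 24 than at 16 weeks, by 0.45 (SE 0.18, limma adjusted p = 0.457).

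Maoa and Maob followed different genes from sample to sample. With group means removed, Maob had an r of 0.844 with the mean of 6 endothelial genes (Pecam1, Cdh5, Kdr, Tek, Emcn and Cldn5), 0.812 with smooth muscle and pericyte genes and -0.734 with Schwann cell and myelin genes. The r of Maoa was -0.453, -0.584 and 0.501 with the same lists, opposite in sign in each. Between the oxidases themselves r was -0.378. The genes most like Maob were Elk3 (r = 0.890), a transcription factor of endothelium, and Tgm2 (r = 0.878), the gene for tissue transglutaminase, and those most like Maoa were Pea15a (r = 0.798) and Stx7 (r = 0.781). These values describe samples that share tissue make-up, and they carry no test.

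**Figure D3:**
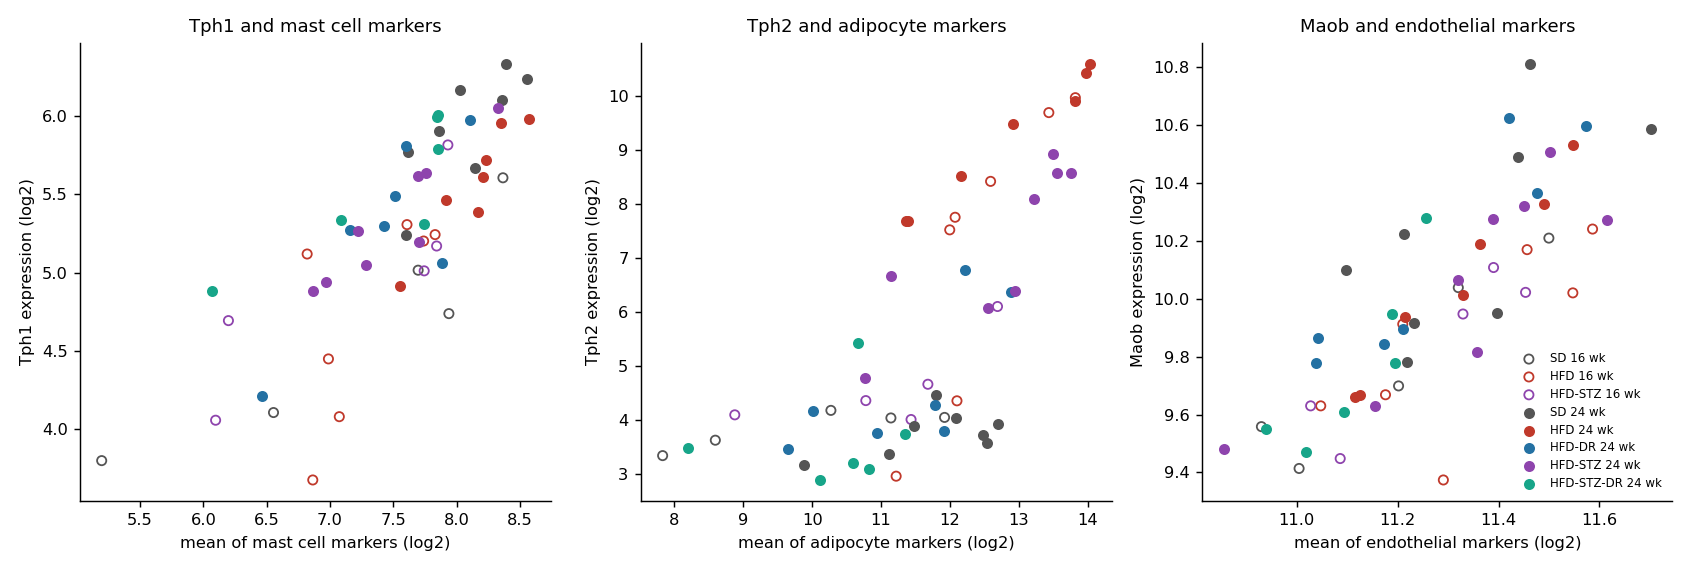
Log2 expression of Tph1, Tph2 and Maob (y axes) against the mean log2 value of mast cell, adipocyte and endothelial genes (x axes) in the 53 samples; open circles are 16-week samples, filled circles 24-week samples, and colours mark the groups. Over all samples r was 0.805 for Tph1, 0.723 for Tph2 and 0.813 for Maob.

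Neither receptor gene passed the test. Htr2a was lowest at 4.09, with a median of 5.05, and highest at 5.78 in SD at 24 weeks, and lowest at 4.24, with a median of 4.59, and highest at 5.96 in HFD. The ranges overlapped, with 2 of 7 HFD samples above every SD sample, and the difference was -0.10 (SE 0.33, 95% interval -0.80 to 0.59, limma adjusted p = 0.942). Its largest difference among the 6 comparisons was with reversal of HFD-STZ, where it was 0.31 lower (-0.31, SE 0.16, limma adjusted p = 0.814, exact permutation two-sided p = 0.0370) and 3 of 6 HFD-STZ-DR samples were below every HFD-STZ sample.

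Htr2b was lowest at 3.53, with a median of 4.82, and highest at 5.70 in SD at 24 weeks, and lowest at 4.31, with a median of 4.59, and highest at 4.91 in HFD. The HFD samples lay inside the SD range, and the difference was -0.10 (SE 0.28, 95% interval -0.69 to 0.48, limma adjusted p = 0.929). Single samples set the spread of Htr2b: HFD-DR replicate 1 was at 6.82, with the next HFD-DR sample at 5.00. The genes most like Htr2b were the smooth muscle genes Lmod1 (r = 0.684) and Cnn1 (r = 0.673), and those most like Htr2a were Plxna2 (r = 0.567) and Adcy4 (r = 0.566).

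Within groups, samples with more Tph2 than their group mean also differed in other genes of the set. The relations were weak over all 53 samples, and larger for Maob and Htr2a within the 24-week HFD and HFD-STZ samples. With group means removed from all 53 values, the r with Tph2 was 0.427 for Maob (rho = 0.435), 0.386 for Tph1 (rho = 0.363), -0.335 for Maoa (rho = -0.392), 0.350 for Htr2a (rho = 0.426), 0.237 for Htr2b (rho = 0.380) and 0.206 for Ddc (rho = 0.221). In 100000 permutations within groups, two-sided and adjusted over these 6 relations, p was 0.0123 for Maob, 0.0305 for Tph1, 0.0305 for Maoa, 0.0557 for Htr2a, 0.108 for Htr2b and 0.239 for Ddc. The corresponding permutation p for rho, adjusted in the same way, was 0.00869 for Maob, Maoa, Htr2a and Htr2b, 0.0172 for Tph1 and 0.137 for Ddc. Raw permutation p-values for r were 0.00205 for Maob, 0.0132 for Tph1 and 0.0152 for Maoa. Such sizes were not rare, since 5.42% of all genes had a larger r with Tph2 in size than Maob, 8.22% a larger one than Tph1 and 13.5% a larger one than Maoa. Without the 2 samples farthest from the median of Tph2 (HFD replicates 5 and 6 at 16 weeks), r was 0.491 for Maob, 0.380 for Tph1 and -0.329 for Maoa. In the 15 HFD and HFD-STZ samples at 24 weeks, the groups with the highest Tph2 means, r was 0.795 for Maob (adjusted permutation p = 0.0096) and 0.616 for Htr2a (0.0102). The others did not pass there, with r at 0.515 for Tph1, -0.446 for Maoa, 0.407 for Htr2b and 0.198 for Ddc (adjusted permutation p from 0.126 to 0.535). For these 15 samples the share of all genes with a larger r was not computed, and the adipocyte mean described next was not partialled out. A relation particular to Maob or Htr2a was therefore not shown there.

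Adipocyte genes moved with these relations. The mean of 6 adipocyte genes (Adipoq, Plin1, Cidec, Fabp4, Lep and Retn) had an r with group-centred Tph2 of 0.619, and with Maob of 0.729. With that mean partialled out over all 53 samples, r with Tph2 was -0.05 for Maob, 0.18 for Tph1 and -0.01 for Maoa. None of the 6 relations then had an adjusted permutation p under 0.05, and the largest in size was 0.27 for Ddc. The library numbers in the sample titles form 7 runs, with at most 2 samples of any group in a run, and with both group and run means removed r was 0.505 for Maob, 0.416 for Tph1 and -0.40 for Maoa. Without the 3 samples least like their own group, r was 0.419 for Maob, 0.369 for Tph1 and -0.304 for Maoa, of which only Maob had an adjusted permutation p under 0.05 (0.0346).

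The adipocyte mean differed between groups as well. Of its 6 genes, 0 passed the adjusted threshold in HFD against SD at 24 weeks with limma and 3 had an unadjusted p under 0.05 (9.05% of all genes), all higher: Lep, the leptin gene, by 3.30, Cidec by 1.09 and Fabp4 by 1.08. The others differed by 0.78 for Adipoq, which defines the cell type, 0.40 for Plin1 and -0.35 for Retn. The mean was 11.76 ± 0.94 in SD, 12.81 ± 1.19 in HFD, 12.68 ± 1.13 in HFD-STZ, 11.34 ± 1.19 in HFD-DR and 10.29 ± 1.10 in HFD-STZ-DR nerve at 24 weeks, and 9.95 ± 1.72 in SD, 12.46 ± 0.90 in HFD and 11.09 ± 1.42 in HFD-STZ nerve at 16 weeks (SD over samples). In HFD against SD at 16 weeks 5 of the 6 genes were higher at an unadjusted p under 0.05 (median change 2.42, 8.55% of all genes called). Between the ages in SD nerve 5 of 6 were also higher (median change 1.93, 10.5% of all genes), where Tph2 differed by -0.08. None passed the adjusted threshold with limma in either comparison. With it as a covariate the Tph2 difference was 4.69 rather than 5.42 for HFD against SD, 2.80 rather than 3.49 for HFD-STZ against SD, -3.17 rather than -4.52 for HFD-DR against HFD, and -1.91 rather than -3.62 for HFD-STZ-DR against HFD-STZ. Over the 53 samples r between Tph2 and this mean was 0.723, and the part of adipocytes in the Tph2 values was not tested further.

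The genes most like Tph2 over the 53 log2 values were 1700047G03Rik (r = 0.967), Itgad (r = 0.962), an integrin alpha chain of leukocytes, Saa3 (r = 0.957), an acute-phase protein made in fat and macrophages, Ubd (r = 0.954), a ubiquitin-like protein induced by cytokines, and Oxtr (r = 0.929), the oxytocin receptor. With group means removed r was 0.934, 0.886, 0.902, 0.870 and 0.838 in the same order. No other gene of serotonin synthesis, breakdown or reception was among them. Of 7 markers of serotonin neurons, 5 had a mean at or over the minimum and Fev, a transcription factor that defines these cells, was at most 1.14 in any sample. Slc18a2 and Slc6a4, also on the list, averaged 8.35 and 5.99 in the HFD-STZ samples at 24 weeks other than replicate 7. The mean of the 7 was 4.56 ± 0.17 in SD and 4.82 ± 0.10 in HFD nerve at 24 weeks (SD, n = 8 and 7), with 0 of the 5 tested markers past the adjusted threshold with limma and 0 at an unadjusted p under 0.05. All 5 were higher in HFD, by 0.04 to 0.46 (median 0.24, against 0.01 over all genes). In HFD-STZ against SD they ranged from -0.52 to 0.71 (median -0.03). With group means removed, r between Tph2 and the mean of the 7 was 0.369. The 4 beta cell markers (Ins1, Ins2, Iapp and Slc30a8) were under the minimum in every sample.

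The wider pathway was examined in the same way. Of 55 further genes of serotonin reception, transport, cofactor supply and neighbouring amine and tryptophan routes, 38 were high enough to test in HFD against SD at 24 weeks, 0 passed the adjusted threshold with limma, and 3 had an unadjusted p under 0.05 (9.05% of all genes), 2 higher and 1 lower. The changes ranged from -0.65 for Slc6a2, the noradrenaline transporter gene, to 0.55 for Slc18a1, a vesicular monoamine transporter gene, with a median of 0.02 against 0.01 over all genes. In the other comparisons of a model with SD or of reversal with its model, 37 to 39 were tested and 0 passed. At an unadjusted p under 0.05 there were 2 of 38 in HFD-STZ against SD at 24 weeks (1 higher and 1 lower, 5.99% of all genes), 5 of 39 in HFD-DR against HFD (all lower, 6.72%) and 4 of 37 in HFD-STZ-DR against HFD-STZ (all lower, 6.48%). Pcbd1 and Aldh1a1 were the 2 higher in HFD against SD, and Slc6a2 the 1 lower. Pcbd1 was also higher in HFD-STZ than SD and lower in HFD-DR than HFD. Aldh1a1 was lower in both reversals. The rest were Dbh in HFD-STZ against SD, Slc6a4 (the serotonin transporter gene), Slc16a10 and Aldh1b1 in HFD-DR, and Aldh1b1, Htr7 and Slc7a8 in HFD-STZ-DR. Pcbd1 was 9.24 in HFD-STZ replicate 7 (at most 7.84 in the others of that group). At 16 weeks there were 5 of 38 in HFD against SD (4 higher and 1 lower, 8.55%) and 8 of 37 in HFD-STZ against SD (2 higher and 6 lower, 8.41%).

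Among cofactor genes, all 7 of which were tested, Pcbd1, which recycles tetrahydrobiopterin, was 0.49 higher in HFD than in SD nerve at 24 weeks (SE 0.12, limma adjusted p = 0.145), and the abundant Qdpr and Spr differed by -0.14 (SE 0.07) and -0.11 (SE 0.09). Of the aldehyde and indole genes, 6 of 8 were tested: Aldh1a1 was 0.34 higher (SE 0.11, limma adjusted p = 0.310), and Aldh2, the main mitochondrial aldehyde dehydrogenase, differed by -0.11 (SE 0.08). Akr1a1, with Aldh2 the most abundant of that list, differed by -0.04 (SE 0.07). For transport and storage, 6 of 7 were tested, and Slc22a3 and Slc22a2, genes for low-affinity organic cation transporters and the most abundant of the list, differed by 0.30 (SE 0.25) and -0.07 (SE 0.14). None of these changes passed the adjusted threshold.

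For catecholamine synthesis, 3 of 6 genes were tested. Slc6a2 was 0.65 lower in HFD (SE 0.24, limma adjusted p = 0.428), and Th, tyrosine hydroxylase, differed by 0.31 (SE 0.23). For the kynurenine route, the main fate of tryptophan outside protein, 8 of 11 were tested, with Tdo2 at 0.33 (SE 0.24), Kyat3 at -0.21 (SE 0.12) and Qprt at -0.05 (SE 0.16). All 4 genes of large neutral amino acid uptake were tested, with Slc16a10 at 0.45 (SE 0.38), Slc7a5 at 0.12 (SE 0.15) and Slc3a2 at -0.05 (SE 0.10). None of these lists had a gene past the adjusted threshold.

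**Figure D4:**
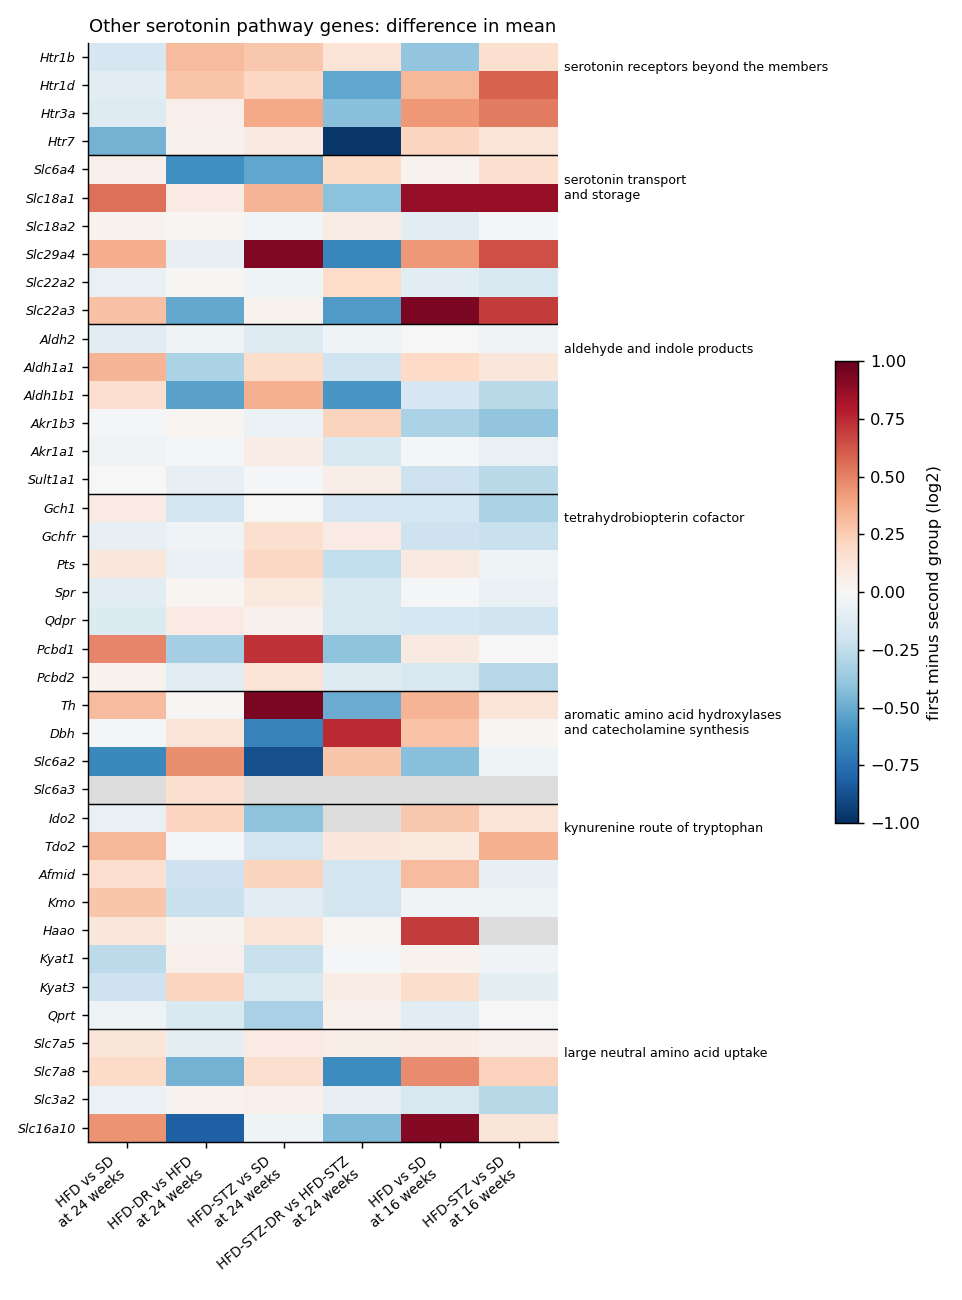
Difference between group means on the log2 scale (colour, red higher and blue lower in the first-named group) for 39 genes of 7 lists (rows) in 6 comparisons (columns); grey cells were under the minimum for testing. No cell passed the adjusted threshold, and the largest in size was -0.97 for Htr7 in HFD-STZ-DR against HFD-STZ.

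Among the 12 receptor genes beyond Htr2a and Htr2b, 4 were tested: Htr7, the most abundant, was 0.47 lower in HFD than in SD nerve at 24 weeks (SE 0.29, limma adjusted p = 0.631), and Htr1b differed by -0.17 (SE 0.24). Most receptor genes were near the floor everywhere but in HFD-STZ replicate 7 at 24 weeks. In that library Htr3a was 11.10 (at most 7.18 in any other sample), Htr1d was 9.76 (at most 4.92), Htr1f was 8.02 (at most 2.92), Htr4 was 7.81 (at most 3.14) and Htr1a was 7.34 (at most 2.75). In all, 10 of the 12 receptor genes were higher there than in every other sample, and Htr2c and Htr6 were not, nor were Htr2a and Htr2b. The Htr7 difference of -0.97 between HFD-STZ-DR and HFD-STZ includes this library, where Htr7 was 8.15 (at most 6.91 in the other HFD-STZ samples at 24 weeks). The scale of values in this library is in doubt, as described next.

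The same library stood apart as a whole. Nefl and Nefm stood at 56.99 and 54.09 there (at most 11.06 and 9.98 in the other samples), too high to be plain log2 levels. The scale of the other values of this library is therefore in doubt. The mean of its neuron markers, taken without Nefl and Nefm, was 14.60, against at most 9.62 in the other samples. Of the 25 genes with a log2 value above 22, 23 owed it to this library, and its mean r with its own group was 0.940, the lowest of the series. Of the 7 genes, Ddc (6.93) and Maoa (12.07) were at their highest there, and Tph2, at 6.66, was inside the range of its group. Leaving out each sample in turn, this one included, left 0 of the 6 genes past the adjusted threshold in all of these comparisons. HFD-STZ-DR replicate 4, the next lowest at 0.955, had a skeletal muscle marker mean of 16.72 (next 11.84 in its group), the highest Tph2 (5.42) and Ddc (6.71) of its group. SD replicate 5 at 24 weeks followed, at 0.968, with a muscle mean of 17.43.

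**Figure D5:**
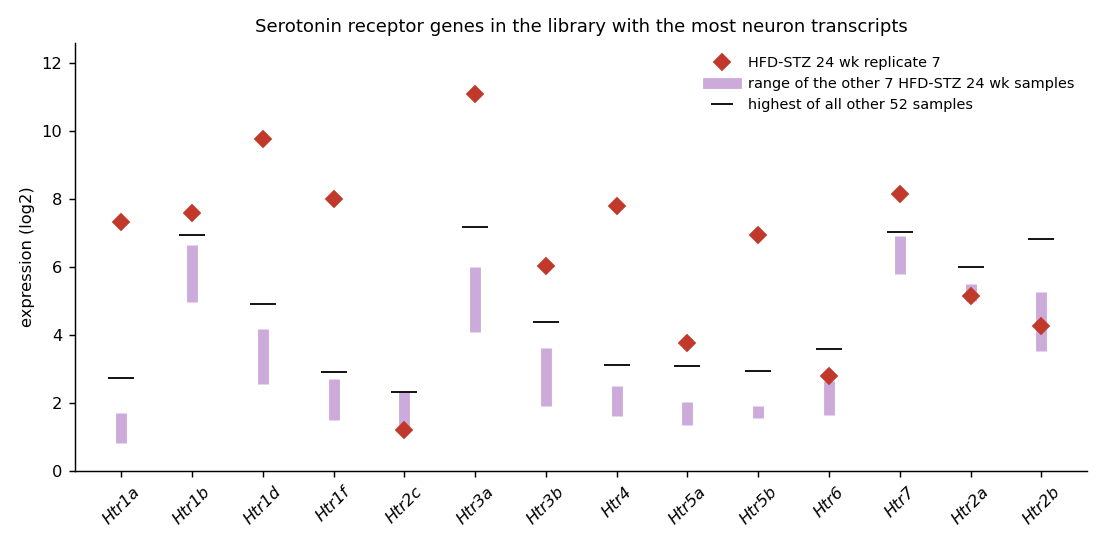
Log2 expression (y axis) of 14 serotonin receptor genes (x axis) in HFD-STZ replicate 7 at 24 weeks (red diamonds), the range of the other 7 samples of that group (purple bars) and the highest of all other 52 samples (black dashes). The diamonds of 10 genes lie above the dashes, with Htr3a at 11.10 against 7.18, but the scale of values in that library is in doubt.

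Differences between conditions in these effects were tested as well. The effect of HFD at 24 against 16 weeks, that of HFD-STZ at 24 against 16 weeks, and the effect of reversal in HFD-STZ against HFD each had 0 of the 6 genes past the adjusted threshold with limma (0% of genes passed in each) and 0, 1 and 0 at an unadjusted p under 0.05 (1.67%, 4.68% and 1.71% of genes), the 1 being Tph1. The remaining comparisons also had 0 of these genes past the adjusted threshold with limma (0% of genes in each). At an unadjusted p under 0.05 there were 0 of 6 in HFD-STZ against HFD at 24 weeks (5.59% of genes), 1 of 6 in HFD-DR against SD (Tph1, 5.14%), 1 of 6 in HFD-STZ-DR against SD (Maob, 9.16%), 0 of 6 in HFD-STZ-DR against HFD-DR (3.58%) and 1 of 7 in HFD-STZ against HFD at 16 weeks (Tph2, -2.59, SE 1.06, 4.88%).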

How the data were processed

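The submitters' processing notes, by the authors, name HISAT2, featureCounts, DESeq2 and mm10 (versions not given in the sources used here). The deposited values are log2 expression per gene and sample, normalised by the authors in a way not named. The paper gives an approximate read number per sample, but the depth of each library is unknown, so the spread between samples is the only error. The authors tested counts with DESeq2. Since the deposited values are log2, limma 3.58.1 in R 4.3.3 was used on the 2 groups compared, with an intensity trend of the prior, Benjamini-Hochberg over all genes tested, a mean log2 value of at least 3.32, and the 25 genes with a value above 22 left out. Exact permutation tests and relations used Python 3.11.15. The tests were checked on simulated data. With the group sizes and spread of HFD against SD at 24 weeks, 38% of genes given a log2 change of 0.5 passed the adjusted threshold. This share was 81.5% for a change of 1 and 96.5% for a change of 2, so small changes could be missed. The labels tie no sample to a mouse, so p-values measure the spread between samples. Members and lists were chosen with earlier results of these data known. Named genes: the 7, and of each pathway list the 2 most abundant and the 1 with the largest change in HFD against SD at 24 weeks, with the genes most like each member and Tph2's neighbours, and any listed gene past the adjusted threshold (there was none). Receptors in 1 library, the extremes of a list and the unadjusted genes were chosen after their values were seen. Alternatives: filter, variance prior, scaling, samples in the fit, covariates and left-out samples. Positions and sequences are from GENCODE M21 (GRCm38, the same build as mm10), coding sequences aligned with Biopython 1.88.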

Additional observations from a re-analysis of the deposited data

Results flagged for a closer look

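In 56 groups of the 7 genes and 32 of marker means, 7 samples lay farther from the rest of their group than Dixon's 95% critical value allows, and chance flags about 1 in 20 groups. Htr2b was 5.08 in SD replicate 5 at 16 weeks (next 4.01) and 6.82 in HFD-DR replicate 1 (next 5.00). Maoa was 11.41 in HFD replicate 4 at 24 weeks, below the next at 11.61. In HFD-STZ-DR replicate 4, Tph2 was 5.42 (next 3.73) and Ddc 6.71 (next 5.94), in a sample with a skeletal muscle marker mean of 16.72. The mean of muscle markers was 15.43 in SD replicate 2 at 16 weeks (next 8.56), and that of neuron markers was 14.60 in HFD-STZ replicate 7 at 24 weeks (next 9.42). The cause was not tested.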

How the results depend on the processing

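No paired analysis was possible by replicate number because the labels give none. The titles carry library numbers, and their runs, which the labels do not call batches, were added to the fit of all 8 groups instead. The count of genes past the adjusted threshold, with Tph2 left out at 24 weeks, was 0 in every limma setting and with every sample left out, except that Tph1 made it 1 for SD at 24 against 16 weeks when all 8 groups were fitted together (adjusted p = 0.0425) and with the library-number run added to that fit (0.00800). With the adipocyte mean as a covariate the sign turned for Maoa (0.0471) in HFD against SD at 24 weeks, Ddc (0.0425) in HFD-STZ against SD at 24 weeks, Tph1 (0.00996), Maoa (-0.0440) and Htr2b (0.31) in HFD-DR against HFD, Ddc (-0.14) and Maob (0.25) in HFD-STZ-DR against HFD-STZ, Tph1 (-0.35), Maob (-0.46) and Htr2b (-0.44) in HFD against SD at 16 weeks, and Maob (-0.15) in HFD-STZ against SD at 16 weeks. With the muscle mean it turned for Htr2b (0.0327) in HFD against SD at 24 weeks, Maob (-0.0622) in HFD-DR against HFD, Ddc (-0.0146) in HFD-STZ-DR against HFD-STZ, and Ddc (0.0302) and Maob (-0.0305) in HFD-STZ against SD at 16 weeks. None of these changes passed the threshold, and the cause was not tested. Leaving out each sample in turn also turned the sign of small differences. They ranged in HFD against SD at 16 weeks from -0.132 to 0.207 for Ddc, -0.218 to 0.161 for Htr2a, -0.00645 to 0.349 for Htr2b, -0.0169 to 0.182 for Maob and -0.141 to 0.31 for Tph1, in HFD-STZ against SD at 16 weeks from -0.262 to 0.0772 for Ddc and -0.0452 to 0.153 for Maob, in HFD-STZ against SD at 24 weeks from -0.22 to 0.0491 for Ddc, in HFD-STZ-DR against HFD-STZ at 24 weeks from -0.107 to 0.194 for Ddc and -0.135 to 0.343 for Htr2b, in HFD against SD at 24 weeks from -0.275 to 0.0118 for Htr2a, -0.275 to 0.0354 for Htr2b and -0.0709 to 0.00596 for Maoa, in HFD-DR against HFD at 24 weeks from -0.397 to 0.0943 for Htr2b. Of the relations within groups, Htr2a passed without the 2 samples farthest in Tph2 (0.384), Tph1 (0.369) and Maoa (-0.304) did not without the 3 samples least like their group, an alternative chosen after seeing the data, and none did with the adipocyte mean partialled out (Tph1 0.178, Maoa -0.0111, Maob -0.0456). The depth of each library is unknown, so counting error could not be given.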
